A study of Mus musculus with 48 samples.

Results

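The ileum and the duodenum of weaned mice were compared at week 4, the oldest of 8 ages in a developmental series. The comparison used the 3 ileum and the 3 duodenum samples that the labels place at week 4, 6 of the 48 samples in the series. Each sample was total RNA from a 2 cm piece of full-thickness intestine, the duodenum taken beside the pylorus and the ileum beside the ileocecal junction, sequenced on an Illumina NovaSeq. All 6 came from C57Bl/6J mice that were weaned from the dam to chow at day 21. The labels call the housing standard germ-free and allow both sexes, and most litters gave mice of 2 or 3 ages. All 6 week 4 samples had Xist counts and no Ddx3y counts. Nothing in the labels says that a duodenum and an ileum sample with the same number came from 1 mouse. Nor do they say that the numbered samples are separate animals. The p-values therefore measure a spread between samples, estimated in a shared fit of all 48 samples and not from these 6 alone.

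The small intestine changes its work along its length. The duodenum meets acid, bile and pancreatic juice and takes up much of the sugar, fat, iron and calcium, whereas the terminal ileum recovers bile acids and vitamin B12 and lies next to the dense microbial community of the caecum in conventionally housed mice. Bile acids enter ileal enterocytes through the transporter ASBT (Slc10a2), bind the cytosolic protein FABP6, leave through the OSTα/OSTβ pair (Slc51a and Slc51b), and activate the nuclear receptor FXR (Nr1h4), which induces the hormone FGF15. GATA4 keeps the proximal enterocyte programme in place, and Hox genes mark position along the gut.

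Total estimated counts ran from 16824021 to 46810435 in the 6 samples, within the range of 16824021 to 65042327 over all 48. Levels below are in CPM, counts scaled to a common library total. 3 counts correspond to 0.0783 to 0.204 CPM, so lower levels could not be told from absence. Enterocyte markers summed to 16330 to 30400 CPM and were present in every sample. Smooth muscle markers, which a full-thickness piece should hold, summed to 21.7, 60.5 and 35.5 CPM in duodenum 1, 2 and 3 and to 46.6, 233 and 114 CPM in ileum 1, 2 and 3. Fewer cells of a type and less RNA per cell cannot be told apart in such bulk samples.

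Of 20901 genes tested, 4369 differed between ileum and duodenum (edgeR quasi-likelihood test, Benjamini-Hochberg adjusted p under 0.05), which is 20.9% of the genes. Of these, 2306 were higher in the ileum (11.0% of genes tested) and 2063 higher in the duodenum (9.87%), and the median log2 difference over all genes tested was 0.07. The 3 samples of one region lay wholly above those of the other in 7703 genes (36.9%), and 3813 of the called genes were among them. Differences beyond 8-fold were found in 471 ileum-higher and 72 duodenum-higher genes. The number of calls was 2397 without duodenum 1, 2122 without duodenum 3 and 1716 without ileum 3, where 654 were higher in the ileum and 1062 in the duodenum. The direction of the calls followed expression level. Among genes with a mean under -1 log2 CPM, 629 were higher in the ileum and 82 in the duodenum, and among genes over 5 log2 CPM, 219 were higher in the ileum and 905 in the duodenum. Olfactory and vomeronasal receptor genes, genes of the nose, were counted in the same samples: 369, 352 and 334 of 1428 such genes had a count in the duodenum and 399, 509 and 641 in the ileum. Their summed counts were 592, 557 and 479 CPM in the duodenum and 632, 883 and 1710 in the ileum, and the mitochondrial share of counts was highest in ileum 3, at 35.2% against 21.8% to 26.9% in the others. The part of these library differences in the calls of weakly expressed genes was not tested.

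**Figure D1:**
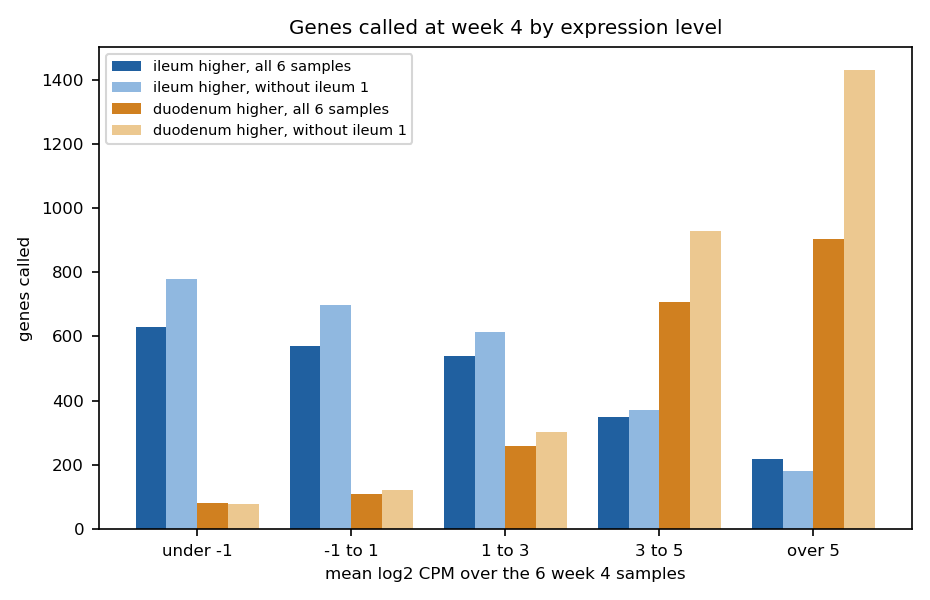
Genes called at week 4 (y axis, number of genes) in 5 classes of mean expression over the 6 samples (x axis, log2 CPM), split into ileum-higher and duodenum-higher, with all samples and without ileum 1. Ileum-higher calls lead in the 3 lower classes (629 against 82 under -1) and duodenum-higher calls in the 2 upper ones (905 against 219 over 5).

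One ileum sample had a partly proximal profile. Genes called at week 3, with a mean of at least 1 log2 CPM over all 48 samples, were ranked by their week 3 difference. That difference came from the shared fit, so the week 4 samples had a part in the filter, scaling and spread. The 100 genes most duodenum-biased at week 3 had medians of 5.27, 4.64 and 5.36 log2 CPM in duodenum 1, 2 and 3. In ileum 1, 2 and 3 their medians were 3.53, 2.50 and 3.00 log2 CPM. The 100 most ileum-biased genes of week 3 had medians of 1.39, 2.74 and 1.57 log2 CPM in the duodenum and of 3.89, 4.53 and 4.24 log2 CPM in the ileum. Both lists separated the regions, but ileum 1 was the ileum sample nearest to the duodenum on both, and duodenum 2 the duodenum sample nearest to the ileum. Pairwise Spearman correlations across genes were averaged for each ileum sample. Ileum 1 had a mean of 0.967 with the other ileum samples and 0.970 with the duodenum samples. These means were 0.969 and 0.954 for ileum 2, and 0.962 and 0.934 for ileum 3. Without ileum 1, 5749 genes were called, among them 4058 of the 4369, all with the same sign.

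**Figure D2:**
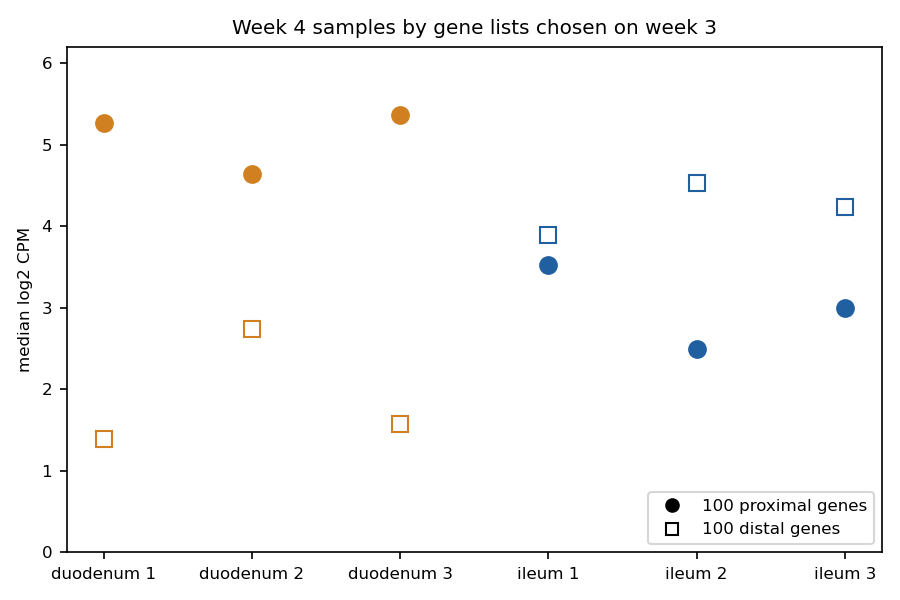
Median log2 CPM (y axis) of the 100 proximal, duodenum-biased genes (filled circles) and the 100 distal, ileum-biased genes (open squares) in each week 4 sample (x axis). Both lists were ranked by the week 3 difference in the shared fit. The medians lie closest together in ileum 1 (3.53 and 3.89) and are 2.50 and 4.53 in ileum 2.

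Bile acid genes held some of the largest regional differences. Of 9 tested members, 6 were higher in the ileum and 1 in the duodenum, with a median log2 difference of 1.05. Slc10a2, the apical sodium-dependent bile acid transporter (ENSMUSG00000023073, mm10 chr8:5083219-5105351, minus strand), was at 0.939, 1.31 and 0.565 CPM in duodenum 1, 2 and 3 and at 58.0, 648 and 287 CPM in ileum 1, 2 and 3. Its log2 difference was 8.44 ± 0.63 (SE, edgeR quasi-likelihood, adjusted p = 2.65e-11). Every ileum sample was far above every duodenum sample, with ileum 1 the lowest of the 3. Fabp6, the ileal bile acid binding protein (ENSMUSG00000020405, chr11:43596049-43601540, minus strand), was at 0.104, 0.278 and 0.671 CPM in the duodenum and at 42.0, 1265 and 1970 CPM in the ileum, a log2 difference of 11.67 ± 1.47 (edgeR adjusted p = 1.66e-06). Ileum 1 again lay between the duodenum and the other ileum samples.

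Fgf15, the ileal hormone that lowers bile acid synthesis in the liver (ENSMUSG00000031073, chr7:144896531-144900953, plus strand), was at 0, 0.0278 and 0 CPM in the duodenum and at 10.5, 101 and 86.4 CPM in the ileum (edgeR adjusted p = 1.87e-05). This rests on 1 count in the duodenum samples together against 4681 in the ileum, a ratio of 7530 with a counting interval of 1350 to 298000. The basolateral exporter changed far less. Slc51b (ENSMUSG00000053862, chr9:65412714-65422955, minus strand) was at 65.1, 85.7 and 73.2 CPM in the duodenum and 120, 174 and 139 CPM in the ileum (log2 difference 0.95 ± 0.22, edgeR adjusted p = 0.00324), without overlap. Slc51a (ENSMUSG00000035699, chr16:32474504-32487879, minus strand) was at 148, 232 and 210 CPM against 313, 548 and 361 CPM (1.05 ± 0.33, adjusted p = 0.0237). The Slc51a call was lost on leaving out duodenum 1, duodenum 3, ileum 2 or ileum 3, with log2 differences of 0.76 to 1.09.

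The receptor gene Nr1h4 was at 30.5, 30.1 and 26.8 CPM in the duodenum and 47.4, 127 and 98.7 CPM in the ileum (log2 difference 1.65 ± 0.27, edgeR adjusted p = 4.6e-05), again without overlap and with ileum 1 lowest. Nr0b2, which encodes SHP, an FXR-induced repressor, went the other way: 2.56, 1.14 and 1.59 CPM in the duodenum against 0, 0.219 and 0.272 CPM in the ileum (log2 difference -3.36 ± 0.46, adjusted p = 4.03e-06). The uncalled members were Abcc3, an organic anion exporter, at 82.6, 140 and 123 CPM in the duodenum and 71.4, 114 and 58.8 CPM in the ileum, and Abcc2, an apical anion pump, at 587, 1021 and 933 CPM against 588, 349 and 295 CPM. The samples of the regions overlapped for both.

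FXR binds inverted repeats of the half-sites GGTNA and TNACC set 1 base apart, and the promoters of Fabp6 and Slc51b are shown because each holds that pattern. Among the 250 bases upstream of RefSeq gene starts (GRCm38.p6, both strands searched), it occurred in 70 of 27025 genes (0.259%) and in 2 of the 8 bile acid members with a promoter in that set. The 100 bases printed for Fabp6 are chr11:43601689-43601788, minus strand, and those for Slc51b are chr9:65422905-65423004, minus strand, both 5′ to 3′ with the repeats in capitals. A match is a description of the letters and not evidence of binding.
Fabp6: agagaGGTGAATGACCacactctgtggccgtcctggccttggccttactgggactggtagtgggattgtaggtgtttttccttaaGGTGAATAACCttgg
Slc51b: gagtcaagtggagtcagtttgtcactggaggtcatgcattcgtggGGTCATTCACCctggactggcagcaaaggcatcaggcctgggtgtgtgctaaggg
Fabp6 holds the pattern at 2 places and Slc51b at 1; their regional log2 differences were 11.67 and 0.95.

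**Figure D3:**
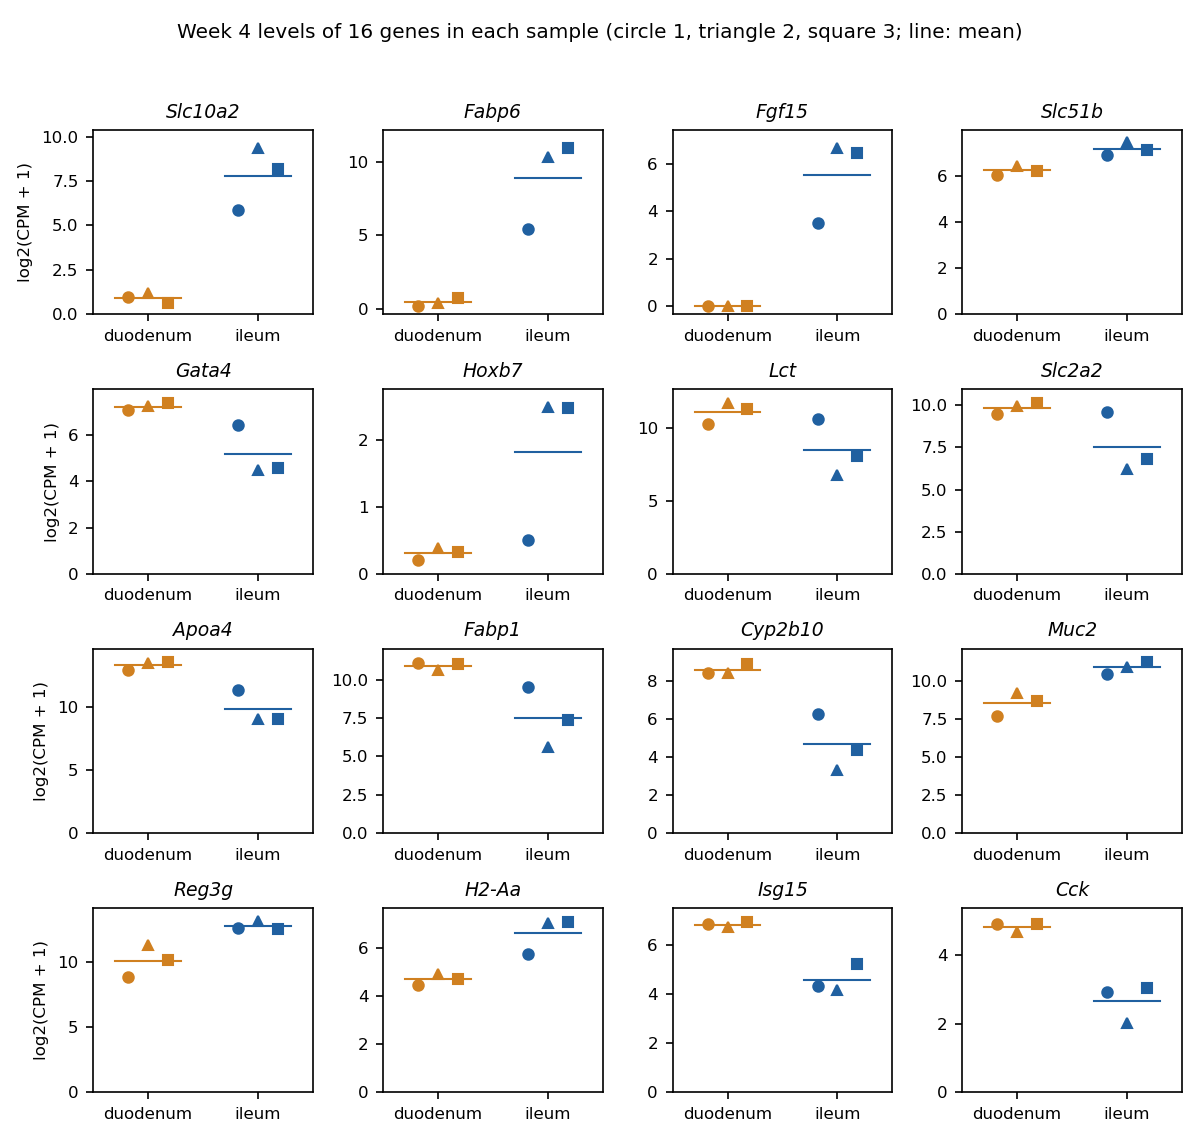
Expression (y axis, log2(CPM + 1)) of 16 genes in each of the 3 duodenum and 3 ileum samples of week 4, 1 point per sample (circle 1, triangle 2, square 3) with a line at the mean. Hoxb7 and Slc2a2 were chosen after their values were seen. Slc10a2, Fabp6 and Fgf15 are near 0 in all duodenum samples, and ileum 1 lies toward the duodenum for Slc2a2 and Lct, where it overlaps it.

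Among 17 transcription factors of the proximal-distal axis, 2 were higher in the ileum and 4 in the duodenum (median -0.10). Gata4, which maintains proximal identity, was at 135, 151 and 166 CPM in the duodenum and 86.5, 21.3 and 22.7 CPM in the ileum (log2 difference -1.79 ± 0.39, edgeR adjusted p = 0.00169). Without ileum 1 the difference was -2.82. Onecut2 was the steepest of the group, at 273, 149 and 201 CPM against 16.1, 3.97 and 13.6 CPM (-4.23 ± 1.12, adjusted p = 0.00867). Gata6, at 124, 114 and 138 CPM against 93.0, 72.3 and 59.7 CPM (log2 difference -0.74), and Creb3l3, a regulator of lipid genes, at 273, 425 and 407 CPM against 216, 107 and 82.6 CPM (-1.45), were also higher in the duodenum without overlap. The pan-intestinal factors Cdx2 (log2 difference -0.16) and Hnf4a (-0.10) were not called and their samples overlapped. Osr2, higher in the ileum by 1.32, lost its call without duodenum 1, duodenum 3 or ileum 3 (0.99 to 1.28).

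Hox genes, which pattern the gut wall along its axis, were higher in the ileum in 11 of 24 tested and 1 had the opposite sign, with a median log2 difference of 2.29. The samples together held 1 count of Hoxb9 in the duodenum and 740 in the ileum, a ratio of 1190 (counting interval 213 to 47100). Hoxb8 was at 0, 0.111 and 0.141 CPM in the duodenum and 0.294, 7 and 4.42 CPM in the ileum, and Hoxb7 at 0.157, 0.306 and 0.247 CPM against 0.411, 4.59 and 4.55 CPM (log2 differences 5.55 and 3.74, edgeR adjusted p = 0.000446 and 0.000451). For both genes ileum 1 sat just above the duodenum samples and far below ileum 2 and 3. Ileum 1 also had the lowest smooth muscle marker sum of the 3 ileum samples, 46.6 CPM against 233 and 114, and 4 of 10 such markers were higher in the ileum. The part of the muscle layer in the Hox differences was not tested. Hoxc8, at 0, 0.167 and 0 CPM against 0.998, 3.06 and 2.92 CPM, differed by 5.25 with all samples. Its 6 duodenal counts all came from duodenum 2, and without that sample it was at least 55-fold higher in the ileum (0 counts against 158, at the floor of 3 counts over the region). The single duodenum-higher gene, Hoxa10, had 33 duodenal counts and 0 ileal ones, at least 6.84-fold lower in the ileum, and its call was lost without duodenum 1, duodenum 3 or any 1 of the ileum samples. Calls in the list numbered 7 without duodenum 1, duodenum 3 or ileum 2, and 8 without ileum 3.

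Sugar digestion and transport genes were lower in the ileum: 11 of 14 were called higher in the duodenum and 3 were not called, with a median log2 difference of -1.11. Treh, the brush border trehalase, was at 410, 638 and 672 CPM in the duodenum and 209, 109 and 72.0 CPM in the ileum (log2 difference -2.14 ± 0.53, edgeR adjusted p = 0.005). Slc2a5, the fructose transporter GLUT5, was at 167, 218 and 306 CPM against 129, 55.5 and 37.0 CPM (-1.64 ± 0.41, adjusted p = 0.00481), and the gluconeogenic enzyme gene Fbp1 at 39.0, 28.7 and 45.7 CPM against 15.3, 6.41 and 10.5 CPM (-1.83). None of these 3 overlapped, and ileum 1 was the highest ileum sample in each.

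Lactase and the basolateral sugar transporter showed how far ileum 1 decided values. Lct was at 1258, 3261 and 2565 CPM in the duodenum and 1560, 107 and 264 CPM in the ileum, so that ileum 1 lay inside the duodenum range (log2 difference -1.88 ± 0.47, edgeR adjusted p = 0.00513). Without ileum 1 the Lct difference was -3.70, and without ileum 3 it was -1.55 and no longer called. Slc2a2, which encodes GLUT2, was at 704, 984 and 1119 CPM against 780, 73.1 and 113 CPM, a difference of -1.54 that became -3.37 without ileum 1 and was not called without ileum 2 (-1.08) or ileum 3 (-1.18). The glucose transporter Slc5a1 (SGLT1) was not called, at 2122, 4643 and 3940 CPM against 4693, 2034 and 1259 CPM (-0.42), with ileum 1 the highest of the 6 samples. Without ileum 1 it was called higher in the duodenum, at -1.16 ± 0.24 (edgeR adjusted p = 0.000713). The number of sugar genes called higher in the duodenum was 4 without ileum 3, 6 without ileum 2 and 12 without ileum 1, where the list's median was -1.80. With only the week 4 samples fitted, 4 sugar genes were called higher in the duodenum.

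Fat absorption genes followed the same direction, with 11 of 16 higher in the duodenum, 5 not called and a median of -1.04. The duodenum-higher count of this list was 9 to 13 when any 1 week 4 sample was left out. With only the week 4 samples fitted it was 4. Apoa4, a chylomicron apolipoprotein, was at 7949, 11850 and 12130 CPM in the duodenum and 2635, 529 and 534 CPM in the ileum (log2 difference -3.11 ± 0.42, edgeR adjusted p = 3.09e-06). Fabp1, the liver-type fatty acid binding protein, was at 2145, 1622 and 2064 CPM against 736, 49.0 and 162 CPM (-2.62 ± 0.50, adjusted p = 0.000361), and by -4.24 without ileum 1. No ileum sample reached a duodenum sample for either gene. Apoc2 differed by -2.65, the fatty acid translocase gene Cd36 by -2.58 (-3.95 without ileum 1), Dgat2, a triglyceride synthase, by -1.64, and the lipid droplet gene Plin2 by -1.34. Fabp2, the intestinal paralogue of Fabp1, went uncalled at 3989, 3374 and 3170 CPM against 6501, 3487 and 5637 CPM (0.57). Without ileum 2 the Fabp2 difference was called, at 0.77. The apolipoprotein gene Apoa1 was not called with all samples (-0.69) and was called without ileum 1 (-1.14, edgeR adjusted p = 0.0397).

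Fatty acid oxidation and ketogenesis genes were higher in the duodenum in 11 of 16, with 5 not called and a median of -0.88. The count was 7 without duodenum 3. Pdk4, the kinase that restrains pyruvate use, was at 18.9, 16.99 and 25.9 CPM in the duodenum and 3.29, 1.34 and 5.57 CPM in the ileum (log2 difference -2.66 ± 0.55, edgeR adjusted p = 0.000939). Acot1, an acyl-CoA thioesterase, was at 8.61, 3.34 and 9.86 CPM against 1.29, 1.72 and 1.36 CPM (-2.29 ± 0.38, adjusted p = 5.58e-05). Both separated fully.

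Cholesterol synthesis went the other way, with 7 of 20 genes higher in the ileum, 13 not called and a median of 0.49. Hmgcs1, an early enzyme of the pathway, was at 152, 149 and 152 CPM in the duodenum and 275, 373 and 333 CPM in the ileum (log2 difference 1.11 ± 0.25, edgeR adjusted p = 0.00206). Sqle, squalene epoxidase, was at 49.4, 62.8 and 51.7 CPM against 109, 223 and 96.6 CPM (1.39 ± 0.28, adjusted p = 0.000757), with ileum 2 the highest sample and a difference of 0.90 without it. Only 2 of the pathway genes were called without duodenum 1, duodenum 3 or ileum 2, and 4 without ileum 3. Of 7 sterol uptake and efflux genes, 1 was called in each direction (28.6%, against 20.9% of all genes tested). The lipoprotein receptor gene Scarb1 was higher in the duodenum, at 16.1, 6.12 and 22.7 CPM against 3.17, 2.59 and 4.83 CPM (-2.10).

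Drug-metabolising enzymes and transporters were mostly higher in the duodenum. Of 25 tested, 22 were higher in the duodenum, 1 in the ileum and 2 were not called, with a median log2 difference of -1.80. Cyp2c29 was at 36.7, 22.3 and 69.9 CPM in the duodenum and 2.94, 1.09 and 1.84 CPM in the ileum (log2 difference -4.48 ± 0.58, edgeR adjusted p = 5.4e-06). Cyp2b10, a target of the xenobiotic receptor CAR, was at 350, 345 and 471 CPM against 77.4, 9.12 and 19.8 CPM (-3.46 ± 0.75, adjusted p = 0.00219). Cyp3a11, the main intestinal drug-oxidising P450 of mice, was at 1121, 1301 and 1417 CPM against 244, 83.6 and 156 CPM (-2.99 ± 0.76, adjusted p = 0.00591). For all 3 the regions were far apart and ileum 1 was the highest ileum sample. Glutathione transferases Gsta1 (-3.39) and Gstm3 (-3.06) and Nr1i3, the gene of CAR itself (-1.80, and -2.74 without ileum 1), differed in the same direction. The exception was the apical efflux pump Abcg2, higher in the ileum by 0.73 and not called without duodenum 1 (0.56) or ileum 2 (0.40).

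Retinoid handling genes were higher in the duodenum in 5 of 11, with 6 not called (median -0.82). Rbp2, which binds retinol in enterocytes, was at 2535, 1874 and 2430 CPM in the duodenum and 1006, 188 and 305 CPM in the ileum (log2 difference -2.19 ± 0.37, edgeR adjusted p = 7.28e-05). Rdh7, a retinol dehydrogenase, was at 89.6, 91.4 and 121 CPM against 22.6, 5.25 and 6.05 CPM (-3.16 ± 0.60, adjusted p = 0.000358). Aldh1a1, which makes retinoic acid, differed by -2.03, and Lrat, which esterifies retinol, by -1.44 (-2.16 without ileum 1). All 4 separated the regions. Bco1, which cleaves carotene, was not called at 7.54, 17.2 and 14.5 CPM against 18.4, 2.75 and 6.66 CPM (-0.50), and was called without ileum 1 (-1.52, edgeR adjusted p = 0.0146). The list's median without ileum 1 was -1.52.

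Few mineral and vitamin B12 genes were called at this age. The share called was 11.1% of iron genes and 14.3% of vitamin B12 genes, against 20.9% of all genes tested. Of 9 iron genes, ferritin heavy chain Fth1 was the single one called, at 2655, 1425 and 2479 CPM in the duodenum and 1061, 700 and 792 CPM in the ileum (log2 difference -1.36 ± 0.23, edgeR adjusted p = 0.000107). Cybrd1, the duodenal iron reductase, was at 12.8, 6.43 and 5.69 CPM against 13.0, 7.12 and 29.8 CPM and was not called (0.99), but was called without duodenum 1 (1.43) or ileum 2 (1.34). With all samples none of 7 calcium and vitamin D genes was called by edgeR or by DESeq2, and 2 had an unadjusted edgeR p under 0.05. Without ileum 1 edgeR called 2 of them, the claudin gene Cldn15 (-1.44, adjusted p = 0.00952, against -0.86 with all samples) and the calcium pump gene Atp2b1 (0.58, adjusted p = 0.0372, against 0.45). It called 1 without duodenum 1, and 3 with the day 4 samples and day 6 number 3 left out of the shared fit. The calcium channel Trpv6 ranged from 0.389 to 17.1 CPM among the duodenum samples alone, and the calcium-binding protein gene S100g from 16.1 to 377 CPM, in both cases with duodenum 2 lowest. Their regional log2 differences were -0.83 and -0.65, and ran from -2.12 to -0.11 and from -2.15 to 0.34 on leaving out 1 sample. Vitamin B12 genes showed 1 call in 7, Cd320, a receptor for transcobalamin (log2 difference -1.3, lost without duodenum 1, duodenum 3 or ileum 3, at -1.28 to -1.19). Cubn, the ileal receptor subunit for intrinsic factor, was at 151, 497 and 287 CPM in the duodenum and 778, 753 and 492 CPM in the ileum and was not called (1.11), with ileum 3 below duodenum 2. It was called without duodenum 2 (1.59).

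Amino acid and peptide transporters were split, with 2 of 13 higher in the ileum and 3 in the duodenum. Slc1a1, the glutamate and aspartate transporter EAAT3, was at 43.5, 58.0 and 52.3 CPM in the duodenum and 110, 222 and 102 CPM in the ileum (log2 difference 1.5 ± 0.27, edgeR adjusted p = 0.000151). The neutral amino acid transporter gene Slc7a8 went the other way, at 254, 568 and 466 CPM against 394, 87.6 and 92.4 CPM, with ileum 1 inside the duodenum range (-1.17, and -2.29 without ileum 1). It was not called without ileum 2 (-0.83) or ileum 3 (-0.88), and the list lost all 3 of its duodenum-higher calls without ileum 3 and had 6 without ileum 1 and 5 without duodenum 1. Its ileum-higher count was 1 without any 1 sample other than ileum 1.

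Brush border peptidases were also split, with 2 of 11 higher in each region. The metalloprotease meprin α (Mep1a) was at 69.6, 203 and 109 CPM in the duodenum and 537, 1068 and 578 CPM in the ileum (log2 difference 2.52 ± 0.42, edgeR adjusted p = 6.98e-05), and Xpnpep2, an aminopeptidase for peptides with proline, at 33.8, 191 and 76.8 CPM against 349, 433 and 232 CPM (1.75 ± 0.36, adjusted p = 0.000767). Both separated the regions, and duodenum 2 was the duodenum sample nearest to the ileum. The ileum-higher count was 4 without duodenum 2, and the duodenum-higher count was 0 without duodenum 3, ileum 2 or ileum 3 and 1 without duodenum 1 or duodenum 2. Tmprss15, the enteropeptidase that activates trypsinogen in the duodenal lumen, was at 124, 36.4 and 152 CPM against 10.04, 4.72 and 18.7 CPM (-3.24 ± 1.03, adjusted p = 0.0251), but lost its call on leaving out any week 4 sample other than duodenum 2 (-3.89 to -2.87). Among alkaline phosphatases, Alpi was at 1715, 1416 and 2126 CPM against 767, 498 and 410 CPM (-1.65 ± 0.36, edgeR adjusted p = 0.00173). Akp3, whose product is known from the duodenum, was at 978, 77.4 and 1047 CPM against 168, 45.3 and 327 CPM and was not called (-1.96).

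Among arginine and citrulline genes, 4 of 10 were higher in the duodenum and 1 in the ileum (median -0.61). The duodenum-higher count was 2 without duodenum 1, duodenum 3, ileum 2 or ileum 3, and 6 without ileum 1, where the median was -1. Cps1, which starts the urea cycle and gut citrulline synthesis, was at 1503, 1068 and 1565 CPM in the duodenum and 652, 648 and 403 CPM in the ileum (log2 difference -1.28 ± 0.25, edgeR adjusted p = 0.000551). Aldh18a1, which makes the precursor of citrulline from glutamate, differed by -0.92. The regions did not overlap for either gene.

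Of 14 ion and fluid transport genes, 2 were higher in the ileum and 3 in the duodenum. Without duodenum 3 these counts were 0 and 1, without ileum 3 they were 1 and 1, and the ileum-higher count was 1 without duodenum 1. Slc5a8, a sodium-coupled transporter of short-chain fatty acids, was at 1.17, 75.5 and 6.25 CPM in the duodenum and 352, 545 and 274 CPM in the ileum (log2 difference 3.82 ± 1.03, edgeR adjusted p = 0.00985). Duodenum 2 stood far above the other duodenum samples: the difference was 6.71 without it, and the call was lost without duodenum 3 (3.34). The bicarbonate transporter Slc4a7 was at 240, 138 and 345 CPM against 113, 77.3 and 109 CPM (-1.27 ± 0.28, adjusted p = 0.0016). The paired hormone genes guanylin (Guca2a) and uroguanylin (Guca2b) had opposite signs, at 1.99 and -1.04. Guanylin lost its call without duodenum 1, duodenum 3 or ileum 3 (1.77 to 1.94), and uroguanylin without duodenum 3, ileum 2 or ileum 3 (-0.94 to -0.83), moving to -1.61 without ileum 1.

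Goblet cell genes were higher in the ileum in 8 of 10, with 2 not called and a median of 1.05. Muc2, the main secreted mucin, was at 207, 603 and 421 CPM in the duodenum and 1444, 1992 and 2477 CPM in the ileum (log2 difference 2.26 ± 0.43, edgeR adjusted p = 0.000345). Clca1, a mucus-processing protease, was at 488, 809 and 526 CPM against 1707, 2364 and 3325 CPM (2.02 ± 0.28, adjusted p = 5.4e-06). For both, all ileum samples were above all duodenum samples and ileum 1 was the lowest of the 3. Spdef, the goblet cell transcription factor, was at 12.5, 12.5 and 7.77 CPM against 16.1, 23.4 and 22.3 CPM (0.92 ± 0.20, adjusted p = 0.00194). Without ileum 3, 5 of the genes were called: Tff3 (0.61) and Agr2 (0.64) lost their calls there, and Fcgbp (0.95 with all samples) lost its call without duodenum 1, duodenum 3, ileum 2 or ileum 3 (0.69 to 0.92). The uncalled Zg16, a lectin, was at 601, 986 and 838 CPM against 1676, 1451 and 2670 CPM (1.26).

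Alpha-defensins, the antimicrobial peptides of Paneth cells, were higher in the ileum in 9 of 23 tested, with 14 not called and a median of 1.09. These genes are near-identical copies, so the split of reads among them by the authors' estimation is uncertain. Defa32 was at 3.58, 7.51 and 2.61 CPM in the duodenum and 105, 304 and 163 CPM in the ileum (log2 difference 5.38 ± 0.90, edgeR adjusted p = 0.00011). Defa33 (3.76), Defa22 (2.87) and Defa21 (2.71) also separated the regions. The summed level of the family overlapped, at 3796, 2553 and 2019 CPM against 3457, 5494 and 3801 CPM. The count of called defensins was 6 without duodenum 3. Of 6 other Paneth cell genes, Mmp7, whose protease matures defensins, was the single call (1.10, lost without duodenum 3 at 0.97 and ileum 2 at 0.58). That share of 16.7% compares with 20.9% of all genes tested.

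Of 7 Reg lectins, 2 were higher in the ileum and 1 in the duodenum. Reg3g, an antibacterial lectin, was at 457, 2617 and 1154 CPM in the duodenum and 6362, 9101 and 6082 CPM in the ileum (log2 difference 2.35 ± 0.51, edgeR adjusted p = 0.00152). Reg3b was at 1177, 5272 and 3826 CPM against 11630, 16300 and 11160 CPM (1.93 ± 0.63, adjusted p = 0.029), lost without duodenum 1, duodenum 3, ileum 2 or ileum 3 (1.51 to 2.00). Reg4 was higher in the duodenum, at 152, 124 and 106 CPM against 62.3, 40.2 and 49.4 CPM (-1.33 ± 0.24), and Reg1 was not called at 1092, 281 and 1050 CPM against 52.8, 24.0 and 73.3 CPM (-4.02), although its samples did not overlap, and was called without duodenum 2 (-4.46).

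Of 10 induced epithelial defence genes, 4 were higher in the ileum and 6 were not called (median 1.71). Saa1, serum amyloid A1, was at 0, 1.47 and 0.0707 CPM in the duodenum and 38.6, 200.1 and 87.9 CPM in the ileum (log2 difference 7.69 ± 0.91, edgeR adjusted p = 6.45e-07). Duox2, the epithelial hydrogen peroxide producer, was at 10.4, 149 and 16.5 CPM against 428, 872 and 258 CPM (3.15 ± 0.64, adjusted p = 0.000811), and Nos2, inducible nitric oxide synthase, at 0.574, 40.5 and 1.80 CPM against 195, 360 and 141 CPM (4.02 ± 0.85, adjusted p = 0.00131). In all of these duodenum 2 was the highest duodenum sample by far and the regions still did not overlap. Without duodenum 2, Saa1 had 2 duodenal counts against 8356 in the ileum, a ratio of 4370 with a counting interval of 1210 to 36100. The log2 differences without that sample were 5.24 for Duox2, 5.37 for its maturation factor Duoxa2 (3.30 with all samples) and 7.61 for Nos2.

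Glycosyltransferases gave 3 ileum-higher calls in 11. Fut2, which adds terminal fucose to epithelial glycans, was at 2.56, 6.18 and 1.73 CPM in the duodenum and 26.2, 91.7 and 23.2 CPM in the ileum (log2 difference 3.75 ± 0.47, edgeR adjusted p = 6.72e-07). The sialyltransferase St6gal1 was at 1.44, 2.50 and 1.77 CPM against 4.52, 9.44 and 20.3 CPM (2.58 ± 0.36, adjusted p = 5.32e-06), and the mucin-core enzyme Gcnt3 differed by 0.75. All 3 separated the regions.

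Of the hormone genes and their regulators, 4 of 17 were higher in the duodenum and 2 in the ileum (median 0.00). Cck, cholecystokinin, was at 28.9, 24.9 and 29.5 CPM in the duodenum and 6.69, 3.09 and 7.27 CPM in the ileum (log2 difference -2.31 ± 0.51, edgeR adjusted p = 0.00193), and ghrelin (Ghrl) at 15.5, 13.6 and 17.8 CPM against 3.46, 2.75 and 4.89 CPM (-2.09 ± 0.54, adjusted p = 0.007). Neurog3, the transcription factor of endocrine progenitors, differed by -2.44. Peptide YY (Pyy), a distal hormone, was at 0.6, 1.59 and 0.707 CPM against 9.57, 11.0 and 32.5 CPM (4.18 ± 0.54, adjusted p = 1.3e-06). These 4 did not overlap. Neurotensin (Nts) was higher in the ileum by 2.6, lost without ileum 3 (1.65). Gip, a proximal incretin, was at 87.9, 84.5 and 80.0 CPM against 64.9, 8.69 and 26.4 CPM and was not called (-1.34), but was called without ileum 1 (-2.31, edgeR adjusted p = 0.00763).

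Among 12 tuft cell genes, 2 were higher in the ileum and 1 in the duodenum, which is 25% against 20.9% of all genes tested. No ileum-higher call was left without duodenum 1, duodenum 3, ileum 1 or ileum 3. The leukotriene synthase gene Ltc4s was at 3.81, 4.03 and 4.56 CPM in the duodenum and 1.59, 0.625 and 1.70 CPM in the ileum (log2 difference -1.70 ± 0.49, edgeR adjusted p = 0.0134), lost without ileum 2 (-1.35). The defining markers Dclk1, Trpm5 and Avil overlapped between regions and were not called. Of 8 crypt stem cell genes, Ascl2 was higher in the duodenum, at 6.498, 2.92 and 5.62 CPM against 1.76, 1.25 and 1.70 CPM (-1.69 ± 0.45, adjusted p = 0.00905), while Olfm4 (-0.85) and Lgr5 (0.32) were not called. Of 13 cell cycle genes, 2 were higher in the duodenum and 11 were not called, with a median of -0.75. None was called without duodenum 1, duodenum 3, ileum 2 or ileum 3. Duodenum-higher calls numbered 5 with only the groups compared and 12 with the day 4 samples and day 6 number 3 left out of the shared fit. With all samples, the share called was 15.4% of cell cycle genes and 12.5% of crypt stem cell genes, all higher in the duodenum. Of all genes tested, 20.9% were called in either direction and 9.87% higher in the duodenum. The 13 cell cycle differences ran from -1.09 to -0.38, and 7 had an unadjusted edgeR p under 0.05. Of the 20901 genes tested, 7541 had such a p.

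All 10 MHC class II genes were higher in the ileum, with a median log2 difference of 2.06. H2-Aa, a class II α chain, was at 21.0, 29.5 and 25.4 CPM in the duodenum and 53.5, 132 and 135 CPM in the ileum (log2 difference 2.08 ± 0.47, edgeR adjusted p = 0.00216). The invariant chain gene Cd74 was at 49.9, 80.4 and 58.7 CPM against 156, 364 and 276 CPM (2.08 ± 0.51, adjusted p = 0.00478), and Ciita, the transactivator of the class II genes, at 4.62, 8.51 and 7.46 CPM against 12.2, 26.4 and 30.8 CPM (1.75 ± 0.41, adjusted p = 0.00333). Every ileum sample exceeded every duodenum sample in all 3, with ileum 1 the lowest. The chaperone gene H2-DMb1 differed by 2.04 and H2-Eb1 by 1.80. Calls were lost for H2-Ab1 without ileum 2 (1.3), for H2-DMa without duodenum 1 (0.90) or ileum 2 (0.81), for H2-DMb2 and H2-Ob without ileum 3 (1.56 and 2.15), and for H2-Oa without duodenum 1, duodenum 3 or ileum 3 (1.69 to 2.12).

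Class II promoters carry a Y box, whose core GATTGG is bound by the factor NF-Y, and 3 of them are shown because these genes moved together. In the 250 bases before RefSeq gene starts, on either strand, GATTGG occurred in 4486 of 27025 genes (16.6%) and in all 7 class II members with a promoter in that set. The 100 bases printed are chr17:34287824-34287923, minus strand, for H2-Aa, chr17:34305767-34305866, plus strand, for H2-Eb1, and chr17:34092279-34092378, plus strand, for H2-Oa (GRCm38.p6, 5′ to 3′), with the core in capitals on either strand. The match describes the letters only.
H2-Aa: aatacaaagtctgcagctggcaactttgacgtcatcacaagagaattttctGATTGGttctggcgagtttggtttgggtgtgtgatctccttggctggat
H2-Eb1: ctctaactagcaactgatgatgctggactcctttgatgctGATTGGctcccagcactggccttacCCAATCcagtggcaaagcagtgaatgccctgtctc
H2-Oa: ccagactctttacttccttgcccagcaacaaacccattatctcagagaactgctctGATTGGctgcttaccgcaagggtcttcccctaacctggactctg
H2-Eb1 holds a further copy on the other strand, printed as CCAATC.

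B cell and plasma cell genes were higher in the ileum in 11 of 13 tested, with 2 not called and a median of 2.43. Ms4a1, which encodes CD20, was at 6.32, 6.31 and 4.88 CPM in the duodenum and 18.7, 35.5 and 64.6 CPM in the ileum (log2 difference 2.76 ± 0.53, edgeR adjusted p = 0.000368). Immunoglobulin μ (Ighm) was at 21.7, 21.2 and 21.5 CPM against 44.6, 98.9 and 154 CPM (2.21 ± 0.62, adjusted p = 0.0118), lost without duodenum 3 (2.19) or ileum 3 (1.68). The duodenum samples lay close together and the ileum samples spread, with ileum 3 highest and ileum 1 lowest in both. Cxcl13, the follicle chemokine that draws B cells, was at 0.235, 0.306 and 0.283 CPM against 1.53, 3.06 and 2.31 CPM (3.06 ± 0.71, edgeR adjusted p = 0.0029). It belongs to a separate list of lymphoid follicle genes and was the only 1 of 9 tested there that was called. That share of 11.1% compares with 20.9% of all genes tested. Igha, the heavy chain of IgA, was not called (1.44), but was called without ileum 1 (1.79, edgeR adjusted p = 0.0199). The list's ileum-higher count was 3 without duodenum 1 or duodenum 3, 6 without duodenum 2, 9 without ileum 2 and 1 without ileum 3.

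The B cell list summed to 93.7, 108 and 139 CPM in the duodenum and 223, 482 and 844 CPM in the ileum, and the class II list to 131, 215 and 176 CPM against 393, 895 and 753 CPM. B cells carry class II molecules, and the part of B cells in the class II differences was not tested. Macrophage and dendritic cell genes, another class II source, gave 1 call in 12 (median 0.21), and none without any 1 sample other than ileum 1. Toll-like receptors were higher in the ileum in 4 of 11, including Tlr4, at 0.131, 0.250 and 0.141 CPM against 0.470, 1.63 and 2.31 CPM (log2 difference 3.04 ± 0.60, edgeR adjusted p = 0.000576). That list had 1 call without duodenum 1, duodenum 3 or ileum 3, and 2 without ileum 2. T cell genes gave 1 call each way in 16. The share called was 12.5% there and 8.33% among the macrophage and dendritic cell genes, against 20.9% of all genes tested. Cd4 was higher in the ileum by 2.02 (lost without ileum 3, 1.45). Cd7 was higher in the duodenum (-1.03), lost without duodenum 1, duodenum 3, ileum 2 or ileum 3 (-1.09 to -0.85). Cd8a (-0.68) and the granzyme gene Gzma (-1.05) were not called although their samples did not overlap.

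Interferon-stimulated genes were higher in the duodenum in 14 of 18, with 1 higher in the ileum, 3 not called and a median log2 difference of -1.54. Isg15, a ubiquitin-like antiviral modifier, was at 113, 104 and 121 CPM in the duodenum and 18.9, 16.9 and 36.0 CPM in the ileum (log2 difference -2.24 ± 0.39, edgeR adjusted p = 0.000138). Bst2, tetherin, was at 29.4, 23.7 and 23.9 CPM against 3.87, 4.56 and 8.50 CPM (-2.19 ± 0.38, adjusted p = 0.000127). Ifit3 was at 90.5, 89.0 and 87.8 CPM against 13.0, 10.9 and 37.3 CPM (-2.14 ± 0.46, adjusted p = 0.00146). The duodenum samples were close together, the regions did not overlap, and ileum 3, not ileum 1, was the ileum sample nearest to the duodenum.

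Usp18, a brake on the interferon response, was at 67.9, 76.9 and 86.6 CPM in the duodenum and 17.5, 15.4 and 25.1 CPM in the ileum (log2 difference -2.00). Ifit1, at 320, 369 and 452 CPM against 86.1, 101 and 189 CPM, and Oas1a, an RNA-sensing synthetase, at 139, 137 and 146 CPM against 33.4, 35.8 and 57.2 CPM, differed by -1.60 and -1.74. Rsad2 (viperin) moved from -1.47 to -2.21 without ileum 3. The exception was Gbp2, a guanylate-binding protein, at 2.95, 5.87 and 3.99 CPM against 7.69, 14.3 and 11.2 CPM (1.37), lost without duodenum 1, duodenum 3, ileum 2 or ileum 3 (1.12 to 1.31). The duodenum-higher count of the list was 13 or 14 when any 1 week 4 sample was left out.

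Interferon-stimulated promoters carry the element GAAANNGAA, bound by interferon-activated factors, and 4 are printed because these genes differed in one direction. It occurred on either strand in the 250 upstream bases of 2211 of 27025 RefSeq genes (8.18%) and of 9 of the 12 listed members with a promoter in that set. The stretches are chr4:156200837-156200936, minus strand, for Isg15, chr19:34583355-34583454, plus strand, for Ifit3, chr19:34640747-34640846, plus strand, for Ifit1, and chr5:120907526-120907625, minus strand, for Oas1a (GRCm38.p6, 5′ to 3′), with the element in capitals. Overlapping copies run together.
Isg15: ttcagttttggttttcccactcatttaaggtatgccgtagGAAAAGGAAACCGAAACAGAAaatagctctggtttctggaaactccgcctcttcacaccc
Ifit3: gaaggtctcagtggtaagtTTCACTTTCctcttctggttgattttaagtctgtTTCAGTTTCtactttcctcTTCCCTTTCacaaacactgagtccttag
Ifit1: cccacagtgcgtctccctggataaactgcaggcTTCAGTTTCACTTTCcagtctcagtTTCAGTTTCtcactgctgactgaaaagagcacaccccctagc
Oas1a: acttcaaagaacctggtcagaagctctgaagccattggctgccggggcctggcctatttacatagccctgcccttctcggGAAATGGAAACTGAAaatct
Isg15, Ifit3 and Ifit1 hold 3 copies each and Oas1a holds 2, on the opposite strand in Ifit3 and Ifit1. No member without a match is implied to lack the response.

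**Figure D4:**
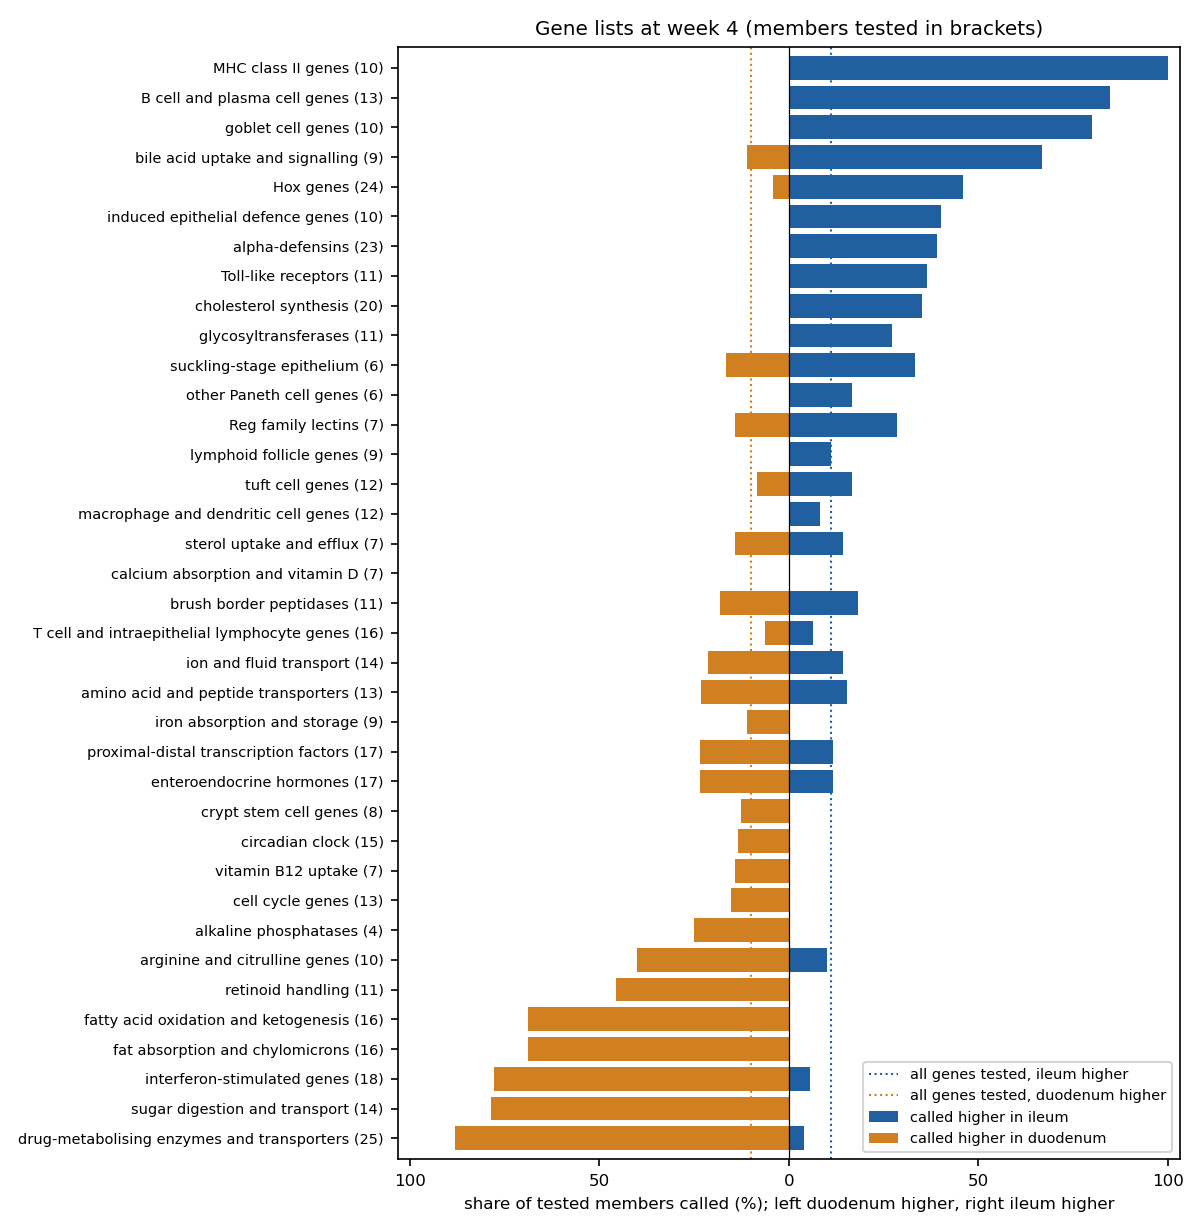
Share of tested members (x axis, percent) called higher in the ileum or in the duodenum at week 4 for each gene list (y axis), with dotted lines at the shares over all genes tested (11.0% and 9.87%). MHC class II, B cell and goblet cell lists lie far to the ileum side, and drug metabolism, interferon-stimulated and sugar lists to the duodenum side.

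The genes with the largest differences over the whole table included further transporters and enzymes. Slc6a14, a broad amino acid transporter, was at 0.131, 0.195 and 0.0707 CPM in the duodenum and 14.3, 191 and 51.3 CPM in the ileum (log2 difference 9.27 ± 1.3, edgeR adjusted p = 6.63e-06). Plb1, a brush border phospholipase, was at 2.11, 28.7 and 1.84 CPM against 1944, 785 and 854 CPM (6.77 ± 0.84, adjusted p = 9.98e-07). Ileum 1 was the highest sample for Plb1 and the lowest ileum sample for Slc6a14. Slc25a48, a mitochondrial carrier, differed by 8.37 and Tmigd1, a brush border adhesion molecule, by 5.73. On the duodenal side, the receptor tyrosine kinase gene Ros1 was at 44.7, 31.8 and 40.6 CPM against 4.46, 0.437 and 0.612 CPM (-4.47 ± 0.48, edgeR adjusted p = 5.2e-08), and Ces2g, a carboxylesterase, at 107, 86.7 and 125 CPM against 9.74, 4.09 and 5.91 CPM (-4.02 ± 0.76, adjusted p = 0.000388). The eosinophil chemokine Ccl24 (-3.84), Paqr9 (-3.78) and Bbox1, the last enzyme of carnitine synthesis (-3.59), also separated fully.

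The regional difference at week 4 was set against that at week 3 and week 2, before and around weaning. The difference itself changed from week 3 in 61 genes (0.292% of genes tested) and from week 2 in 374 (1.79%). Without ileum 1 the changes from week 3 numbered 587, without ileum 3 of week 4 they numbered 28, without duodenum 3 of week 4 34, and without 1 of the week 3 samples 26 to 318. The changes from week 2 numbered 601 without ileum 1, 176 without duodenum 3 of week 4, 217 without ileum 3 of week 4, 248 without duodenum 1 of week 4, and 191 to 307 without 1 of the week 2 samples. Of the genes called at week 4, 748 were also called at week 3, 740 with the same sign, and 979 at week 2, 948 with the same sign. Slc10a2 was at 0.654 ± 0.249 CPM (duodenum) and 1.26 ± 0.433 CPM (ileum) at week 2 (mean ± SD, n = 3), and at 2.30 ± 0.399 and 354 ± 63.7 CPM at week 3. Its regional log2 difference grew by 7.52 ± 0.82 from week 2 to week 4 (edgeR adjusted p = 7.21e-07), and the change from week 3 was not called (1.18). Plb1 grew by 6.44 and the Fabp2 difference by 2.50 since week 2. The whole bile acid list had medians of 1.80 at week 3 and 0.92 at week 2.

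The regional difference of 6 of 18 interferon-stimulated genes moved toward the duodenum since week 2, and that of 1 since week 3. At weeks 2, 3 and 4, duodenal Bst2 was at 4.42 ± 0.142, 2.27 ± 0.254 and 25.7 ± 3.27 CPM, against 7.52 ± 1.02, 2.12 ± 0.236 and 5.64 ± 2.49 CPM in the ileum (mean ± SD, n = 3). Its regional log2 difference moved toward the duodenum since week 2 (-2.96 ± 0.53, edgeR adjusted p = 0.00142). Oas1a moved by -2.14 since week 3 (adjusted p = 0.0155) and by -2.00 since week 2 (adjusted p = 0.00854). The list's median was 0.02 at week 2, -0.19 at week 3 and -1.54 at week 4. The Oas1a change from week 3 was lost without ileum 2 of week 4 (-2.04), duodenum 3 of week 3 (-2.02) or ileum 2 of week 3 (-2.04).

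The MHC class II median was 0.04 at week 2 and -0.05 at week 3, and that of the B cell list 0.29 and 0.81. H2-Aa was at 22.3 ± 4.21, 11.4 ± 2.64 and 107 ± 46.1 CPM in the ileum at weeks 2, 3 and 4. The change in the regional difference was called for none of the 10 class II genes by edgeR in either comparison. The unadjusted edgeR p was under 0.05 for 7 of them against week 3 and 8 against week 2, and DESeq2 called 2 in each.

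Other genes changed their regional difference between week 2 or 3 and week 4. Fut2 was at 1.75 ± 0.559 CPM in the ileum at week 3 and 47.0 ± 38.7 CPM at week 4, against 1.56 ± 0.638 and 3.49 ± 2.36 CPM in the duodenum, a change of 3.59 ± 0.65 in the log2 difference (edgeR adjusted p = 0.00436). Cybrd1 moved toward the ileum, from 75.0 ± 45.6 CPM (duodenum) and 6.65 ± 1.60 CPM (ileum) at week 3 to 8.29 ± 3.89 and 16.6 ± 11.7 CPM at week 4 (4.48 ± 0.59, adjusted p = 6.38e-05). The T cell receptor gene Trac did so too, from 39.4 ± 12 CPM (duodenum) and 1.75 ± 0.408 CPM (ileum) at week 2 to 4.61 ± 0.906 and 6.97 ± 1.77 CPM at week 4 (5.09 ± 0.61, adjusted p = 1.8e-06). Trac was the 1 gene among 16 T cell genes whose change was called, against week 2 and against week 3. The median regional difference of that list was -0.40 at week 2, -1.19 at week 3 and -0.40 at week 4. Of 12 tuft cell genes, 5 moved toward the ileum since week 2. Dclk1 was at 1.05 ± 0.558 CPM in the ileum at week 2 and 30.1 ± 17.3 CPM at week 4, while the duodenum held 9.61 ± 2.66 and 20.1 ± 4.06 CPM (3.75, adjusted p = 0.0136, lost without ileum 3 of week 2, 3.40).

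Some duodenal biases arose over the same weeks. Gsta1 was at 1.66 ± 0.841 CPM (duodenum) and 2.6 ± 0.776 CPM (ileum) at week 2, at 299 ± 40.8 and 111 ± 13.9 CPM at week 3, and at 240 ± 104 and 23 ± 11 CPM at week 4 (change since week 2 -4.03, edgeR adjusted p = 0.00259). Of 25 drug metabolism genes, 8 moved toward the duodenum since week 2. Hlf, a clock-output transcription factor, was at 5.11 ± 3.45 CPM (duodenum) and 0.830 ± 0.337 CPM (ileum) at week 4, against 0.833 ± 0.110 and 2.64 ± 0.872 CPM at week 2 (-4.31, adjusted p = 0.00157), and Dbp, another of the same family, moved by -1.90 since week 3. The Dbp change was lost on leaving out duodenum 3, ileum 2 or ileum 3 of week 4, or duodenum 1, duodenum 3 or ileum 2 of week 3 (-1.85 to -1.61). Of 15 clock genes, these 2 were called at week 4 (13.3%, against 20.9% of all genes tested). Cmpk2, an interferon-induced nucleotide kinase, moved by -2.42 since week 3 (adjusted p = 6.38e-05), from 30.0 ± 4.00 CPM in the duodenum and 77.1 ± 12.7 CPM in the ileum to 113 ± 22.2 and 54.4 ± 13.2 CPM.

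**Figure D5:**
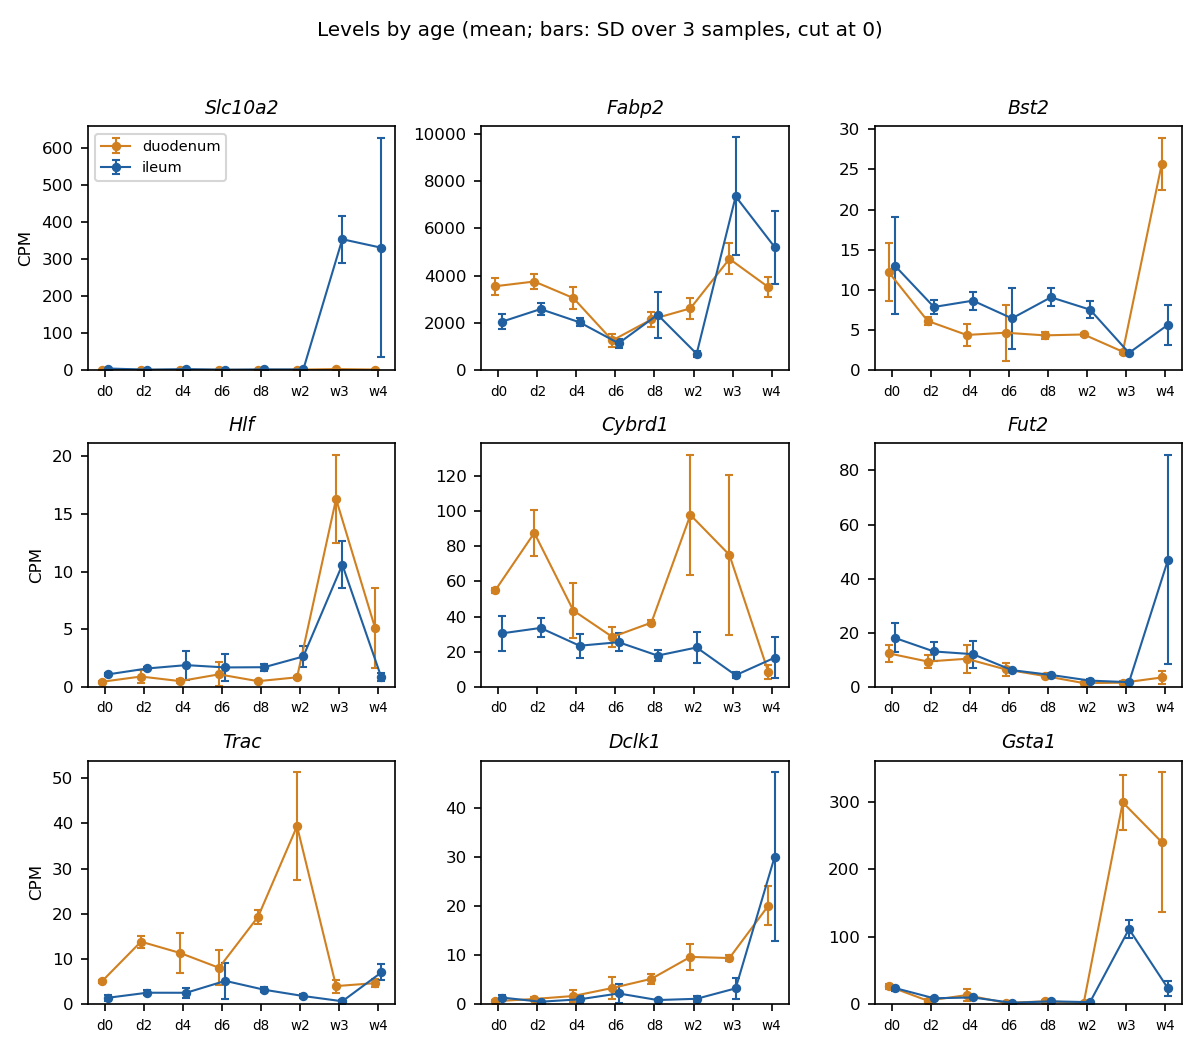
Mean CPM ± SD (y axis, 3 samples per point) of 9 genes in the duodenum and the ileum over the 8 ages (x axis). SD bars are cut at 0. Ileal Slc10a2 is first high at week 3 (354 CPM), and duodenal Bst2 (25.7 CPM) and ileal Fut2 (47.0 CPM) are highest at week 4.

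Markers of neighbouring organs and layers were counted for the same samples. Pancreatic acinar markers gave 3 calls in 13, all higher in the duodenum (1 without duodenum 1, ileum 2 or ileum 3). That share of 23.1% compares with 20.9% of all genes tested. The acinar sums were 40.2, 23.9 and 14.7 CPM against 11.0, 11.7 and 8.77 CPM. Pnlip, pancreatic lipase, had 141 counts over the duodenum samples against 0 over the ileum samples, at least 29.2-fold lower in the ileum, and duodenum 3 had none. Stomach markers summed to at most 1.88 CPM in any sample. Fibroblast markers summed to 169, 386 and 307 CPM against 256, 301 and 218 CPM. Of 8 tested, 1 was called in each direction, with a median log2 difference of 1.42. Their ileum-higher calls numbered 4 with only the week 4 samples fitted. They numbered 7 with the day 4 samples and day 6 number 3 left out of the shared fit. Enteric neuron and glia markers summed to 9.37, 12.9 and 9.05 CPM against 16.8, 19.9 and 36.0 CPM. Of 10 tested, 1 was called, higher in the ileum, with a median of 1.85, and 7 in that smaller shared fit. The smooth muscle list had 4 ileum-higher calls in 10, lost all of them without ileum 2, and had 1 without duodenum 1, 2 without duodenum 3 or ileum 3 and 7 without duodenum 2 or ileum 1. The part of these cell types in the regional differences was not tested.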

How the data were processed

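RNA from 48 mouse intestine samples in 16 groups of region and age was sequenced, and the 6 week 4 samples carry the comparison. The authors deposited one table of estimated counts per gene, which are not whole numbers. The submitters' processing notes name STAR 2.6.1d, Salmon 0.14.2, DESeq2 1.30.1 and the mm10 build, with no role or order. Of 54532 identifiers, 54409 were given a symbol from GENCODE M21, and 0 columns were left unused.

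All 48 samples were fitted together with edgeR 4.0.16 (limma 3.58.1, R 4.3.3), after filterByExpr on the 16 groups and TMM scaling, with a quasi-likelihood test and Benjamini-Hochberg adjustment over all genes tested at a threshold of 0.05. Log2 CPM values used a prior count of 2. Log2 differences are those of the edgeR fit, to which that prior count was not applied. Each SE is the difference divided by the square root of its F statistic. The week 4 difference was also compared with those of weeks 3 and 2 by an interaction contrast. DESeq2 1.42.0, on counts rounded to whole numbers, was an alternative. Levels are CPM on TMM-scaled totals and are not per length, so they are not compared between genes. The floor is 3 counts per sample. Where a region had 0 counts, the fold given as a bound puts 3 counts over that region's samples. Ratios given with an interval use the counts as they are, and the intervals cover counting error only. The depth of each sample limits the precision of weakly expressed genes. The procedure was tested on simulated data.

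Members and gene lists were chosen with earlier results of these data known. Genes were named by 3 rules. In each list, up to 4 called members per direction were taken by size of difference and up to 3 uncalled members by level, and lists of up to 12 could be given whole. Over all genes, the 8 largest differences per direction were taken among called genes with separate samples, a mean of at least 1 log2 CPM and no predicted-gene symbol. The 4 smallest p-values were taken in each age comparison. Slc2a2, Hoxb7, Dgat2, Plin2, Cyp3a11, Nr1i3, Ighm, Usp18, Ifit1, Oas1a, Rsad2 and Trac fall outside these rules and were chosen after their values were seen. Some items are not reported here. Promoters came from RefSeq (GRCm38.p6). Alternatives were another normalization (RLE), other count filters, DESeq2, only the groups compared, a replicate block, fewer samples in the fit, and leaving out each sample.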

Additional observations from a re-analysis of the deposited data

Results flagged for a closer look

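The regional difference at week 4 itself differed from that at an earlier age, by edgeR's interaction test with Benjamini-Hochberg adjustment over all genes, in genes that include those below. They come from the gene lists and from the genes named over the whole table. Values are the week 4 ileum-minus-duodenum log2 difference less that of the earlier age, so positive values are shifts toward the ileum.

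Against week 3, shifts toward the ileum were 4.48 for the iron reductase Cybrd1, 3.59 for the fucosyltransferase Fut2, 3.37 for the T cell receptor gene Trac and 3.29 for the iron exporter Slc40a1. Shifts toward the duodenum were -4.81 for Slc6a3, -3.04 for Nr0b2, -2.87 for Tcf23, -2.42 for Cmpk2, -2.14 for Oas1a, -2.13 for Kcns3, -1.90 for Dbp, -1.89 for Abcb1a, -1.76 for Akr1c13 and -1.60 for Creb3l3. Slc6a3 rests on few counts in the ileum at week 4.

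Against week 2, bile acid and lipid genes shifted by 7.52 (Slc10a2), 6.44 (Plb1), 2.50 (Fabp2), 1.32 (Hmgcs1), -3.24 (Abcc2), -3.04 (Nr0b2), -1.34 (Creb3l3) and -1.07 (Plin2). Brush border and iron genes shifted by 3.11 (Cybrd1), 3.01 (Ggt1), 2.74 (Sis) and -1.97 (Alpi). Genes of drug metabolism shifted toward the duodenum, by -4.03 (Gsta1), -3.17 (Gstm3), -2.48 (Gstm1), -2.24 (Abcb1a), -2.19 (Ugt2b5), -1.66 (Nr1i3), -1.59 (Ugt1a1) and -1.23 (Ugt2b34). Tuft cell genes shifted toward the ileum, by 4.52 (Sucnr1), 3.75 (Dclk1), 3.41 (Trpm5), 3.01 (Avil) and 2.31 (Siglecf), as did the hormone gene Insl5 (6.66, on few counts), Trac (5.09), Fut2 (3.03) and Arhgap6 (3.59). Shifts toward the duodenum among interferon-stimulated genes included -2.96 (Bst2), -2.75 (Oas2), -2.00 (Oas1a), -1.88 (Oasl2) and -1.79 (Usp18). The remaining shifts were -5.06 (Slc6a3), -4.31 (Hlf), -3.93 (Ros1), -3 (Kcns3), -2.62 (Akr1c13), -1.78 (Tcf23) and -1.68 (Dbp).

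Leaving out 1 sample at a time lost 0 to 4 of the 14 calls given here against week 3 and 3 to 16 of the 41 against week 2, the most without duodenum 3 of week 4, and reversed none.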

How the results depend on the processing

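With all samples, 4369 genes were called at week 4, 61 against week 3 and 374 against week 2. Fitting only the groups compared gave 2491, 18 and 748, and a replicate block gave 2366, 20 and 170. Leaving the day 4 samples and day 6 number 3 out of the shared fit gave 8097, 550 and 1750, and 8970 at week 4 with ileum 1 also left out. DESeq2 gave 4931, 239 and 685, and no count filter gave 227 against week 2. Leaving out number 1 of both regions under the replicate block gave 2326. Leaving out 1 sample gave 1716 (without ileum 3) to 5749 (without ileum 1) at week 4, 26 to 587 against week 3 and 176 to 601 against week 2. Without ileum 1 and duodenum 2 together, 375 were called against week 3. Of genes with a mean of at least 1 log2 CPM, 2980 were called, 1966 with only the groups compared, 1810 with the block, 5613 and, without ileum 1, 6143 with the smaller shared fit, 1898 with the block and without number 1, and 1363 to 3824 without 1 sample. In the gene lists other than cell type markers, 206 members were called, 136 to 225 without 1 sample. The cause of these changes was not tested. The fits without ileum 1 together with other samples, and those leaving out week 2 or week 3 samples, were chosen after seeing the data. Of 176 named genes called, 88 kept their call in every alternative run and 88 lost it in at least 1 (37 under the block, 7 without ileum 1), and none changed sign. Deviations from the region mean over 12577 genes gave r of -0.138, 0.178 and -0.238 between samples of the same number. Samples of different numbers gave -0.189 to 0.303. With 3 samples in each region, these values cannot show whether a number marks 1 mouse. The numbers were not taken to pair the samples because the labels do not say that they do. Ileum 3 and ileum 1 have the lowest totals, and levels under 0.204 CPM were not resolved in every sample.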
